A study of Mus musculus with 6 samples.

Results

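The interleukin-6 (IL-6) and IL-11 cytokine family was followed in cardiac fibroblasts treated with TGFβ, as 10 genes: the ligands *Il6*, *Il11*, *Lif* and *Clcf1*, the receptor chains *Il6st*, *Il6ra*, *Il11ra1*, *Lifr* and *Osmr*, and the feedback inhibitor *Socs3*. The members were chosen with earlier results of these data known and taken by gene symbol from the 25140 genes of the deposited count table. All 10 of 10 had enough reads to be among the 14334 genes tested. The study examined how fibroblasts differentiate into contractile, matrix-secreting myofibroblasts, and RNA-seq of polyadenylated mRNA was made from 6 cultures. All were primary cardiac fibroblasts from the adult heart of C57BL/6 mice at passage 1, grown in DMEM with 25 mM glucose and 10% fetal bovine serum (FBS). Serum was then lowered to 1% for 16 h according to the sample labels (the paper's methods give a longer time), and the cells received vehicle (veh, 3 libraries) or TGFβ at 10 ng/ml (3 libraries) for 24 h. The paper's results call the cells mouse embryonic fibroblasts (MEFs), whereas its methods and the labels call them cardiac fibroblasts. Neither group is labelled with a genetic change, and the labels do not say how many hearts a culture came from.

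Most cytokines of the IL-6 family signal through a shared transmembrane chain, gp130, which *Il6st* encodes. IL-6 and IL-11 first bind their own receptor chains and then recruit pairs of gp130, whereas LIF and oncostatin M pair gp130 with the LIF receptor and the oncostatin M receptor. The chains activate JAK kinases and the transcription factor STAT3, and STAT3 induces SOCS3, which binds gp130 and JAKs and shuts the signal down. In the heart, LIF and cardiotrophin 1 act on muscle cells, and IL-11 is known as a fibroblast cytokine that TGFβ induces.

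The libraries held between 27851677 and 31072338 reads counted on genes. Libraries are numbered by the order of the table's columns. Fibroblast markers (10 genes, among them collagens, *Dcn* and *Pdgfra*) summed to 72000 to 80900 CPM with veh and 70000 to 73900 CPM with TGFβ, where CPM are read counts normalised for library size with TMM factors. Of these 10 genes, 7 were lower and 0 higher with TGFβ in edgeR's quasi-likelihood test. Over all genes tested, 20.1% were lower and 20.5% higher, which is the background for each marker list here. Markers of other cells had lower sums, but a sum does not measure a share of cells. Collagens and *Fn1* gave most of the fibroblast sum. The remaining fibroblast markers were lower, such as *Vim* at 3080 to 3450 CPM with veh and 2720 to 2810 CPM with TGFβ. *Tcf21* lay at 300 to 307 CPM and 145 to 149 CPM, and endothelial *Cdh5* at 156 to 271 CPM and 125 to 203 CPM. Endothelial markers (8 genes, 0 called) summed to 462 to 716 CPM with veh and 423 to 586 CPM with TGFβ. Leukocyte markers (10 genes, 1 lower) summed to 273 to 391 CPM and 235 to 350 CPM, of which *Lyz2* gave most, and *Ptprc*, the common leukocyte antigen, lay between 2.52 and 4.43 CPM in all libraries. Smooth muscle and pericyte markers (8 genes, 3 higher and 1 lower) summed to 369 to 394 CPM and 276 to 352 CPM. The gene called lower was *Notch3*, at 191 to 224 CPM and 48.7 to 63 CPM, and it gave much of the veh sum. *Cnn1*, *Smtn* and *Cspg4* were higher, so the lower sum does not describe the list as a whole. Mesothelial markers (4 genes, 0 called) summed to 23.0 to 62.2 CPM and 14.8 to 34.2 CPM. Cardiomyocyte markers summed to 38.8 to 60.3 CPM and 27.6 to 40.8 CPM, nearly all of it *Tnnt2*, while *Myh6*, the cardiac myosin heavy chain, lay between 0.0702 and 0.536 CPM. The part of these cells in the results that follow was not tested. In bulk RNA, fewer cells of a type and less RNA per cell cannot be told apart.

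Upstream sequences are shown for the members whose windows held one of 5 short motifs, since the family's promoters are textbook targets of AP-1, NF-κB and STAT factors. RefSeq windows of 250 bases before the transcription start (build GRCm38.p6) were found for 9 of the 10 members, 12 windows in all. They were searched on both strands for AP-1 (TGANTCA), CRE (TGACGTCA), STAT (TTCNNNGAA), an NF-κB motif (the match GGGATTTTCC with any base in the fifth place) and SMAD (GTCTAGAC) letters. The sequences run 5′ to 3′ on the gene's strand with motif letters in capitals, and no capitals of different motifs overlap. Bases that the GENCODE annotation places in an exon were left off the end nearest the start, 11 bases for *Lif* and 85 bases for *Socs3* (including 77 exonic bases).
Il6, chr5:30012864-30013113, plus strand: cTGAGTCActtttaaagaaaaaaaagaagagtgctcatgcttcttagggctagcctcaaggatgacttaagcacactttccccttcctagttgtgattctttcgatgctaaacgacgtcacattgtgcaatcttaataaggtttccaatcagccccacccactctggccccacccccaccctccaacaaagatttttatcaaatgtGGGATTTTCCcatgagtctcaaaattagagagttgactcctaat
Il11, chr7:4778142-4778391, minus strand: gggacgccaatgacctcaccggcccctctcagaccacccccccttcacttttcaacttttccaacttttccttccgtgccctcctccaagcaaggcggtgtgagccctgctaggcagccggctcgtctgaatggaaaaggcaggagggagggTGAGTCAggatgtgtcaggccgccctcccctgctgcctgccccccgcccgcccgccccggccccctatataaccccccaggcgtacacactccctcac
Lif, chr11:4257318-4257556, plus strand: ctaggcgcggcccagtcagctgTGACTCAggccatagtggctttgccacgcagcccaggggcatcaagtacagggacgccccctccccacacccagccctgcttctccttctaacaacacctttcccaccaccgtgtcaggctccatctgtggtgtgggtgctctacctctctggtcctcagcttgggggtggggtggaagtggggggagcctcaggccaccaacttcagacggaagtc
Socs3, chr11:117969452-117969616, minus strand: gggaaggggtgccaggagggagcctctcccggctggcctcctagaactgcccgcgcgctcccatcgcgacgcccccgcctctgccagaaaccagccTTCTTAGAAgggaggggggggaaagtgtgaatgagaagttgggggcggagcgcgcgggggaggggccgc

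An AP-1 match began 249 bases before the start of *Il6*, 98 bases before the start of *Il11* in the window shown and 228 bases before the start of *Lif*. An NF-κB match began 44 bases before the start of *Il6*, and a STAT match 154 bases before the start of *Socs3*. Of all 32851 mouse windows of this length, 6.75% held the AP-1 letters, 7.02% the STAT letters, 0.356% the NF-κB letters, 1.55% the CRE letters and 0.167% the SMAD letters. The windows shown for *Il11* and *Socs3* lie inside the annotated span of the gene, before RefSeq starts that are downstream of the 5′ end of the GENCODE gene, so these 2 matches are not upstream of the whole gene. The other window of *Il11*, before its longer transcript, held none of the motifs. The windows of *Il6st*, *Il6ra*, *Il11ra1*, *Lifr* and *Osmr* held none of them either. A match describes letters and not a bound site.

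Expression of all 4 ligands was higher with TGFβ, and expression of all 5 receptor chains and of *Socs3* was lower. All 10 of 10 members passed an adjusted p of 0.05 in the quasi-likelihood test of edgeR, adjusted by Benjamini-Hochberg over the 14334 genes, against 40.7% of all genes tested. The members were chosen with earlier results of these data known, so this contrast is a description and no test. With TGFβ, 20.5% of all genes tested were higher and 20.1% lower. The change was beyond 1 on the log2 scale for *Il11*, *Lif*, *Il6st*, *Il6ra*, *Lifr* and *Socs3*, and 6.77% of the genes tested were called with a change of that size. For each of the 10 members, no TGFβ library lay among the veh libraries, which held for 53.3% of all genes tested (27.2% with the TGFβ libraries higher and 26.1% with them lower). For each member the exact permutation test over libraries, two-sided, gave p = 0.1, and 3 libraries against 3 can give no smaller p.

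**Figure D1:**
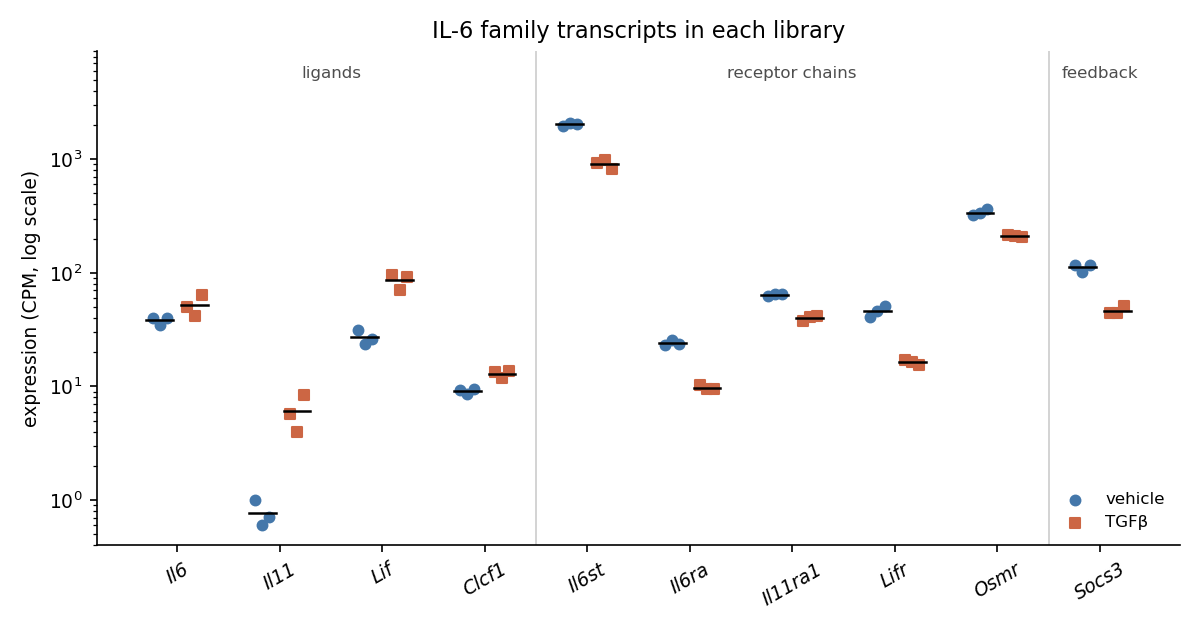
Expression of the 10 members in each of the 6 libraries, in CPM on a log axis (circles, veh; squares, TGFβ; bar, mean of 3 libraries). The TGFβ libraries lie above the veh libraries for the 4 ligands and below them for the 5 receptor chains and *Socs3*, from *Il11* at 0.607 CPM in veh library 2 to *Il6st* at 2102 CPM in the same library.

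*Il11* (ENSMUSG00000004371, chr7:4772373-4782859, minus strand, GRCm38) encodes the cytokine IL-11. It was counted with 32, 18 and 21 reads in the veh libraries and with 155, 112 and 242 reads in the TGFβ libraries. In CPM, the veh libraries stood at 1.01, 0.607 and 0.704 and the TGFβ libraries at 5.67, 4.01 and 8.49. Every TGFβ library was above every veh library by 3.01 CPM or more, and within the TGFβ group library 3 was highest and library 2 lowest. The mean rose from 0.772 ± 0.208 CPM to 6.06 ± 2.26 CPM (SD, n = 3), a log2 fold change of 2.96 (SE 0.33, adjusted p = 0.000376, edgeR), or 7.77-fold. With so few reads, counting error was a visible part of the veh values, since 18 reads have an exact 95% Poisson interval of 10.7 to 28.4. *Il11* had the largest log2 fold change of the 10 members in either direction.

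*Lif* (ENSMUSG00000034394, chr11:4257557-4272514, plus strand) encodes leukemia inhibitory factor, which keeps stem cells undifferentiated and acts on muscle and nerve. Its level was 31.2, 23.4 and 26.3 CPM in the veh libraries and 96.4, 70.7 and 91.1 CPM in the TGFβ libraries. The lowest TGFβ library stood 39.4 CPM above the highest veh library. The mean rose from 27.0 ± 3.97 CPM to 86.0 ± 13.6 CPM (SD, n = 3), with a log2 fold change of 1.67 (SE 0.14, adjusted p = 9.31e-05, edgeR), or 3.19-fold.

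*Clcf1* (ENSMUSG00000040663, chr19:4214238-4223490, plus strand) encodes cardiotrophin-like cytokine factor 1, which signals through the ciliary neurotrophic factor receptor. It stood at 9.37, 8.63 and 9.45 CPM in the veh libraries and at 13.3, 11.9 and 13.5 CPM in the TGFβ libraries. The spread within each group was narrow, and the groups lay 2.44 CPM apart. The log2 fold change was 0.50 (SE 0.08, adjusted p = 0.00203, edgeR), from 9.15 ± 0.451 CPM to 12.9 ± 0.901 CPM (SD, n = 3). Of its 75-base windows, 6.88% also occur in transcripts of another gene. The counts hold no reads for that gene, either because it had none or because it was not listed.

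*Il6* (ENSMUSG00000025746, chr5:30013114-30019981, plus strand) encodes IL-6, the inflammatory cytokine that gives the family its name. Its level was 39.7, 35.03 and 39.7 CPM in the veh libraries and 49.6, 41.8 and 63.7 CPM in the TGFβ libraries. The groups were separated by 2.04 CPM, and TGFβ library 3 stood well above the other two TGFβ libraries. The mean was 38.2 ± 2.70 CPM with veh and 51.7 ± 11.1 CPM with TGFβ (SD, n = 3), a log2 fold change of 0.44 (SE 0.14, adjusted p = 0.0392, edgeR), or 1.35-fold. This call was the least firm of the family. It was lost when any of veh libraries 1, 2 or 3 or TGFβ libraries 1 or 3 was left out, with adjusted p between 0.0623 and 0.117. The log2 fold change was 0.25 without TGFβ library 3 and 0.57 without TGFβ library 2, where the call was kept with adjusted p = 0.011.

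TGFβ library 2 was the lowest TGFβ library for all 4 ligands, and veh library 2 the lowest veh library for all 4. The numbers are positions of columns, and whether veh and TGFβ libraries came from paired cultures is not known. The totals of counted reads in TGFβ library 2 and veh library 2, 28894151 and 29296570, lay within the range of the other libraries.

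**Figure D2:**
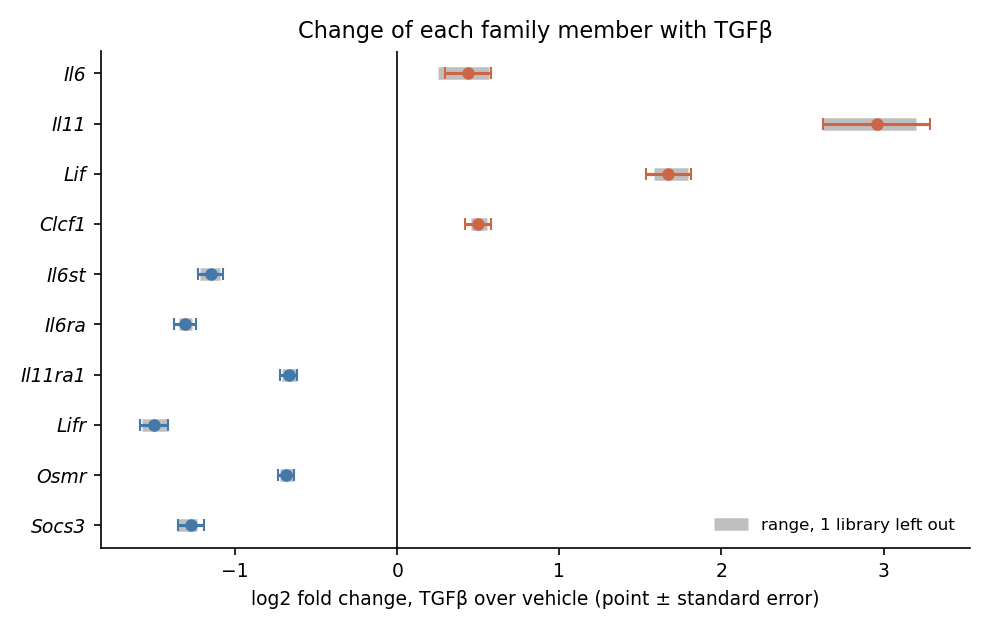
Log2 fold change of TGFβ over veh for each member (points, with the standard error from edgeR as bars) and the range when each of the 6 libraries is left out (grey). *Il11* at 2.96 and *Lifr* at -1.5 mark the ends, and *Il6* at 0.44 has a wide range beside its size.

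*Il6st* (ENSMUSG00000021756, chr13:112464070-112510086, plus strand) encodes gp130, the signalling chain that the ligands among the members share. It stood at 1948, 2102 and 2044 CPM in the veh libraries and at 920.1, 993.5 and 827.4 CPM in the TGFβ libraries. All TGFβ libraries were below all veh libraries by 954 CPM or more. Expression fell from 2031 ± 78.1 CPM to 913.7 ± 83.2 CPM (SD, n = 3), a log2 fold change of -1.15 (SE 0.07, adjusted p = 3.15e-05, edgeR), and the TGFβ level was 44.98% of the veh level. TGFβ library 2, lowest for the ligands, was the highest of its group for *Il6st*.

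*Il6ra* (ENSMUSG00000027947, chr3:89864059-89913196, minus strand) encodes the chain that binds IL-6, on the membrane or as a soluble form. Its level was 23.2, 25.5 and 23.6 CPM in the veh libraries and 10.2, 9.53 and 9.40 CPM in the TGFβ libraries. The values within a group lay close together and the groups were 12.96 CPM apart. Expression fell from 24.1 ± 1.22 CPM to 9.72 ± 0.450 CPM (SD, n = 3), to 40.3% of the veh level, with a log2 fold change of -1.31 (SE 0.07, adjusted p = 1.06e-05, edgeR). It had the smallest adjusted p of the 10 members. An antisense gene, *Gm42809*, overlaps 242 bases of its exons and had 5 reads over all 6 libraries, against 3013 reads for *Il6ra*.

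*Il11ra1* (ENSMUSG00000073889, chr4:41699989-41769474, plus strand) encodes the chain that binds IL-11. It was measured at 62.3, 64.4 and 65.6 CPM in the veh libraries and at 37.7, 41.1 and 42.0 CPM in the TGFβ libraries. The groups did not overlap and were 20.4 CPM apart. The mean fell from 64.1 ± 1.68 CPM to 40.3 ± 2.24 CPM (SD, n = 3), with a log2 fold change of -0.67 (SE 0.05, adjusted p = 6.07e-05, edgeR). The value is uncertain, because 50.3% of its 75-base windows also occur in its near copies *Il11ra2* and *Gm13305*, and how the counting split such reads is not given in the sources used here. *Il11ra2* itself was listed with 3, 2 and 4 reads in the veh libraries and 3, 1 and 1 in the TGFβ libraries. Of its own 75-base windows, 100% also occur in *Il11ra1* or *Gm13305*, so these counts need not reflect its level.

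*Lifr* (ENSMUSG00000054263, chr15:7090614-7197489, plus strand) encodes the LIF receptor, which pairs with gp130 to bind LIF, CLCF1 and relatives. Its level was 41.1, 46.0 and 51.1 CPM in the veh libraries and 17.1, 16.3 and 15.4 CPM in the TGFβ libraries. The highest TGFβ library lay 24.0 CPM below the lowest veh library. Expression fell from 46.1 ± 4.98 CPM to 16.3 ± 0.837 CPM (SD, n = 3), to 35.4% of the veh level, a log2 fold change of -1.5 (SE 0.09, adjusted p = 1.86e-05, edgeR). This was the largest fall of the family, in the receptor of *Lif*, whose own transcript rose 3.19-fold in the same libraries.

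*Osmr* (ENSMUSG00000022146, chr15:6813577-6874969, minus strand) encodes the oncostatin M receptor, which pairs with gp130. It stood at 321.6, 335.6 and 360.7 CPM in the veh libraries and at 215.2, 209.5 and 207.4 CPM in the TGFβ libraries. The TGFβ libraries lay close together, and the highest of them was 106.4 CPM below the lowest veh library. Expression fell from 339.3 ± 19.8 CPM to 210.7 ± 4.03 CPM (SD, n = 3), with a log2 fold change of -0.69 (SE 0.05, adjusted p = 6.04e-05, edgeR). *Osmr* and *Il11ra1* had the smaller falls among the receptor chains, to 62.1% and 62.8% of veh.

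*Socs3* (ENSMUSG00000053113, chr11:117966079-117970047, minus strand) encodes the inhibitor that STAT3 induces and that blocks gp130 and JAKs. Its level was 116.9, 102.5 and 117.9 CPM in the veh libraries and 44.0, 44.2 and 51.3 CPM in the TGFβ libraries. TGFβ library 3 was the highest of its group, yet 51.2 CPM below the lowest veh library. Expression fell from 112.4 ± 8.59 CPM to 46.5 ± 4.17 CPM (SD, n = 3), to 41.4% of veh, with a log2 fold change of -1.27 (SE 0.08, adjusted p = 2.62e-05, edgeR).

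Levels of different genes can be set side by side only per length, so RPKM were computed from the CPM and the length of all annotated exons. With veh, the order from high to low was *Il6st*, *Socs3*, *Osmr*, *Il6*, *Il11ra1*, *Lif*, *Lifr*, *Il6ra*, *Clcf1* and *Il11*. *Il6st* stood at 183 ± 7.03 RPKM (SD, n = 3), above 98.8% of the genes tested, and *Il11* at 0.371 ± 0.0999 RPKM, above 11.4% of them. In this order only the neighbours *Il6* (15.7 ± 1.11 RPKM) and *Il11ra1* (14.3 ± 0.376 RPKM) overlapped between libraries. The place of *Il11ra1* in the order is uncertain in both groups, since 50.3% of its 75-base windows also occur in its near copies.

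With TGFβ, the ligands stood higher in the order, and *Socs3* and the receptor chains other than *Il6st* stood lower. *Il6st* was still first at 82.3 ± 7.50 RPKM (SD, n = 3). Behind it, *Il6* (21.3 ± 4.57 RPKM), *Lif* (19.8 ± 3.12 RPKM), *Osmr* (17.4 ± 0.333 RPKM) and *Socs3* (16.1 ± 1.44 RPKM) overlapped from neighbour to neighbour. *Il11ra1* followed at 9.01 ± 0.501 RPKM, then *Clcf1* (3.40 ± 0.237 RPKM) and *Il11* (2.91 ± 1.09 RPKM), which overlapped. *Lifr* (1.51 ± 0.0777 RPKM) and *Il6ra* (1.13 ± 0.0521 RPKM) came last. Per length, *Il11* lay below *Lifr* and *Il6ra* in every veh library and above both in every TGFβ library. With the longest transcript as length, *Osmr* stood second in both groups (61.8 RPKM with veh and 38.4 RPKM with TGFβ), and *Il11ra1* was 24.6 and 15.5 RPKM.

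**Figure D3:**
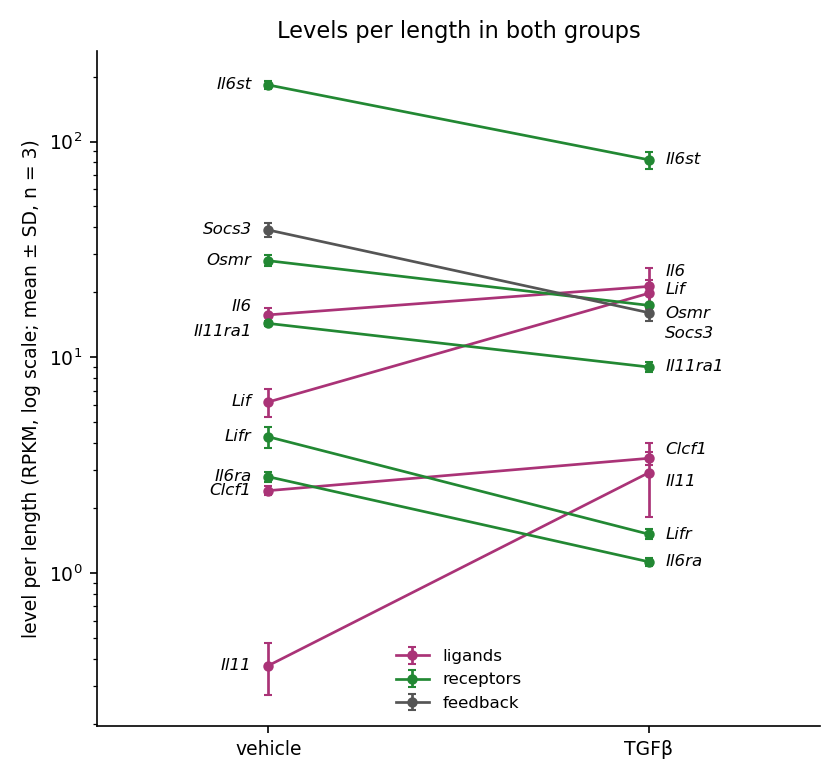
Level per length of each member with veh and with TGFβ, in RPKM on a log axis (points and bars, mean ± SD of 3 libraries). Lines of the 4 ligands rise and lines of the 5 receptor chains and *Socs3* fall, and *Il11* crosses *Lifr* and *Il6ra* on its way from 0.371 to 2.91 RPKM.

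The ratio of *Il11* to *Il6* was compared within each library, where the scaling between libraries cancels. On the log2 scale per length, it was -5.08, -5.63 and -5.59 in the veh libraries and -2.91, -3.16 and -2.68 in the TGFβ libraries. *Il11* was below *Il6* in all 6 libraries, on average 43.3-fold with veh and 7.55-fold with TGFβ. The mean log2 ratio went from -5.43 ± 0.31 to -2.92 ± 0.24 (SD, n = 3), a difference of 2.52 with no overlap and an exact two-sided permutation p of 0.1, again the smallest possible. The ratio was thus higher in each TGFβ library than in any veh library, but 3 libraries a group cannot reach a p of 0.05 in this test.

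Further ratios, chosen after the values were seen, are given without a test. Per length, *Il6* transcripts stood at 5.63 for each *Il6ra* transcript with veh and at 18.6 with TGFβ. *Osmr* stood at 6.57 for each *Lifr* transcript with veh and at 11.5 with TGFβ. *Il6st* and *Il6ra* fell nearly in proportion, at 65.6 and 73.0 transcripts of *Il6st* for each of *Il6ra*. *Il6st* to *Osmr* was 6.54 with veh and 4.72 with TGFβ, since *Il6st* fell more than *Osmr*. The size of these ratios, though not their change with TGFβ, depends on the length used. With the longest transcript as length, an alternative added after seeing the data, *Osmr* to *Lifr* was 13 with veh and 22.8 with TGFβ, *Il6st* to *Osmr* 3.79 and 2.74, and *Il6st* to *Il6ra* 83.9 and 93.4.

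Among the transcripts of the 4 ligands, taken per length, *Il6* made up 61.8% to 64.9% in the veh libraries and 41.8% to 47.9% in the TGFβ libraries. The share of *Lif* was 23.9% to 27.1% with veh and 38.2% to 45.4% with TGFβ, overlapping that of *Il6*. The share of *Il11* was 1.3% to 1.82% and 5.01% to 7.44%, and that of *Clcf1* 9.29% to 10.1% and 6.49% to 8.12%. The *Clcf1* share was thus lower in the TGFβ libraries although its own level was higher, since *Lif* and *Il11* had larger rises.

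**Figure D4:**
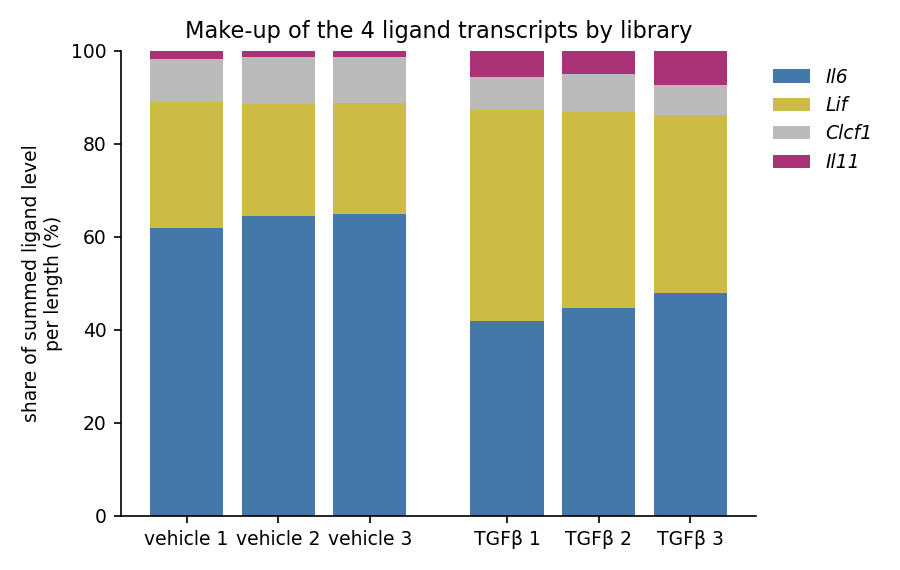
Share of each ligand in the summed level per length of the 4 ligands, in percent, for each of the 6 libraries. *Il6* takes 61.8% to 64.9% of the veh bars and 41.8% to 47.9% of the TGFβ bars, where *Lif* takes 38.2% to 45.4%.

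Only some of the remaining ligands and receptors of the family could be tested in these fibroblasts. Of 12 such genes, 9 were listed and 4 had enough reads to be tested, of which 1 was higher and 2 lower. Among all genes tested, 40.7% were called, and 4 genes are too few to set against this share. *Cntfr*, the ligand-binding chain for CLCF1, fell from 3.59 ± 0.722 CPM to 2.19 ± 0.505 CPM (log2 fold change -0.71, adjusted p = 0.033, edgeR), but its groups overlapped and the call was lost without veh library 2, veh library 3, TGFβ library 1 or TGFβ library 2 (adjusted p up to 0.111). *Il27ra*, the IL-27 receptor chain that pairs with gp130, fell by 1.47 on the log2 scale (SE 0.12, adjusted p = 9.4e-05, edgeR). *Ctf1*, cardiotrophin 1, stood at 1.52 ± 0.444 CPM and 1.99 ± 0.215 CPM and was not called (adjusted p = 0.219, edgeR).

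Too few reads were counted for a test on the ligand of *Osmr*. *Osm*, oncostatin M, had 5, 6 and 4 reads in the veh libraries and 4, 3 and 7 in the TGFβ libraries. *Cntf* had 3, 3 and 2 reads and 4, 6 and 0 reads, *Ebi3* 7, 6 and 11 reads and 4, 7 and 15 reads, and *Il31ra* 0, 4 and 0 reads and 2, 0 and 1 reads. At these counts no difference between the groups could be detected. Of the 75-base windows of *Cntf*, 77.5% also occur in transcripts of *Zfp91*, so its counts need not reflect its level. The symbols *Ctf2*, *Il27* and *Il31* were not found in the table, so their levels are not known.

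Of 12 carriers of the signal inside the cell, 1 was higher and 9 were lower with TGFβ. The share called was 83.3%, against 40.7% over all genes tested (20.1% lower). The list was chosen with earlier results of these data known, so the contrast is a description. The median log2 fold change was -0.26, where the median over all genes tested was -0.0013. With each library left out, 7 to 9 carriers were lower. Except for *Gab1*, their log2 fold changes were smaller in size than that of any of the 5 receptor chains. *Stat3*, the main STAT of the family, fell from 400.3 ± 12.98 CPM to 290.5 ± 2.28 CPM (log2 fold change -0.46, SE 0.04, adjusted p = 0.000138, edgeR). *Jak1*, the kinase that gp130 uses most, fell from 397.8 ± 19.4 CPM to 300.1 ± 5.49 CPM (log2 fold change -0.41, adjusted p = 0.000504, edgeR). *Jak2* (-0.27, adjusted p = 0.0378) and *Tyk2* (-0.21, adjusted p = 0.0307) passed edgeR's test narrowly. The *Jak2* call was lost without veh library 2 or 3 or any TGFβ library (adjusted p up to 0.12), and the *Tyk2* call without veh library 2 or 3 or TGFβ library 1 or 2 and in DESeq2 (adjusted p up to 0.109). *Gab1*, a docking protein for SHP2, had the largest fall of the list at -0.73 (adjusted p = 0.00146, edgeR). *Ptpn11*, which encodes SHP2, was the member that rose, by 0.14 on the log2 scale (adjusted p = 0.0294, edgeR), and it lost its call when any library but TGFβ library 3 was left out (adjusted p up to 0.0937).

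Of 14 other brakes on JAK-STAT signalling, 1 was higher, 7 were lower and 6 were not called, with a median log2 fold change of -0.11. The share called was 57.1%, where it was 40.7% over all genes tested. This list too was chosen with earlier results of these data known. Without veh library 1 or without veh library 2, 4 were lower. *Ptpn6* (SHP1, log2 fold change -0.70, adjusted p = 0.0146, edgeR) and *Socs1* (-0.56, adjusted p = 0.0124, edgeR) had the largest falls, from 3.37 ± 0.660 CPM and 3.05 ± 0.229 CPM with veh (SD, n = 3). Without TGFβ library 1, *Ptpn6* was not called (adjusted p = 0.0536, edgeR). *Ptpn1* fell from 93.4 ± 2.22 CPM to 69.4 ± 0.724 CPM (SD, n = 3), and *Socs6* rose from 23.9 ± 0.285 CPM to 28.6 ± 2.15 CPM (log2 fold change 0.26, adjusted p = 0.012, edgeR). None of the fall sizes in this list reached that of *Socs3*.

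Of 26 genes known to respond to STAT3, *Stat3* itself included, 2 were higher, 20 were lower and 4 were not called, with a median log2 fold change of -0.81. In all genes tested, 20.1% were lower. With each library left out, 15 to 20 of the list were lower. The list was chosen with earlier results of these data known. The acute-phase genes *Hp* (haptoglobin, log2 fold change -2.36, SE 0.47, adjusted p = 0.00554), *Lbp* (-2.02, SE 0.24, adjusted p = 0.000542) and *Serpina3n* (-1.75, SE 0.34, adjusted p = 0.0047) had the largest falls in edgeR's test. The *Hp* counts were highest in library 3 of both groups (2116, 2424 and 4791 with veh and 315, 384 and 988 with TGFβ), and its log2 fold change was -3.03 without TGFβ library 3 and -1.89 without veh library 3. Counts of *Lbp* and *Serpina3n* were also highest in library 3 of both groups. Without TGFβ library 3 their log2 fold changes were -2.30 and -2.19, and without veh library 3 they were -1.81 and -1.48. *Timp1*, an inhibitor of matrix proteases, rose from 308.1 ± 43.1 CPM to 805.5 ± 122.6 CPM (log2 fold change 1.39, adjusted p = 0.000179, edgeR), and *Vegfa*, the vascular growth factor, from 135.5 ± 9.59 CPM to 279.5 ± 9.87 CPM (1.04, adjusted p = 1.79e-05, edgeR). These genes also respond to other factors, and STAT3 activity was not measured.

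Of 4 genes for the processing and shedding of receptors, 2 were higher and 1 was lower. Over all genes tested, 20.5% were higher and 20.1% lower, and 4 genes are too few to set against these shares. *Adam17*, a protease that sheds the IL-6 receptor from the membrane, fell from 133.9 ± 9.75 CPM to 94.5 ± 3.59 CPM (log2 fold change -0.50, adjusted p = 0.000531, edgeR). *Adam10*, another sheddase, rose by 0.23 (adjusted p = 0.016) and *Bace1*, a membrane protease, by 0.35 on the log2 scale (adjusted p = 0.00212, edgeR), with 28.3% of the 75-base windows of *Bace1* also in transcripts of other genes. The *Adam10* call was lost without veh library 3, TGFβ library 1 or TGFβ library 2 (adjusted p up to 0.0551).

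**Figure D5:**
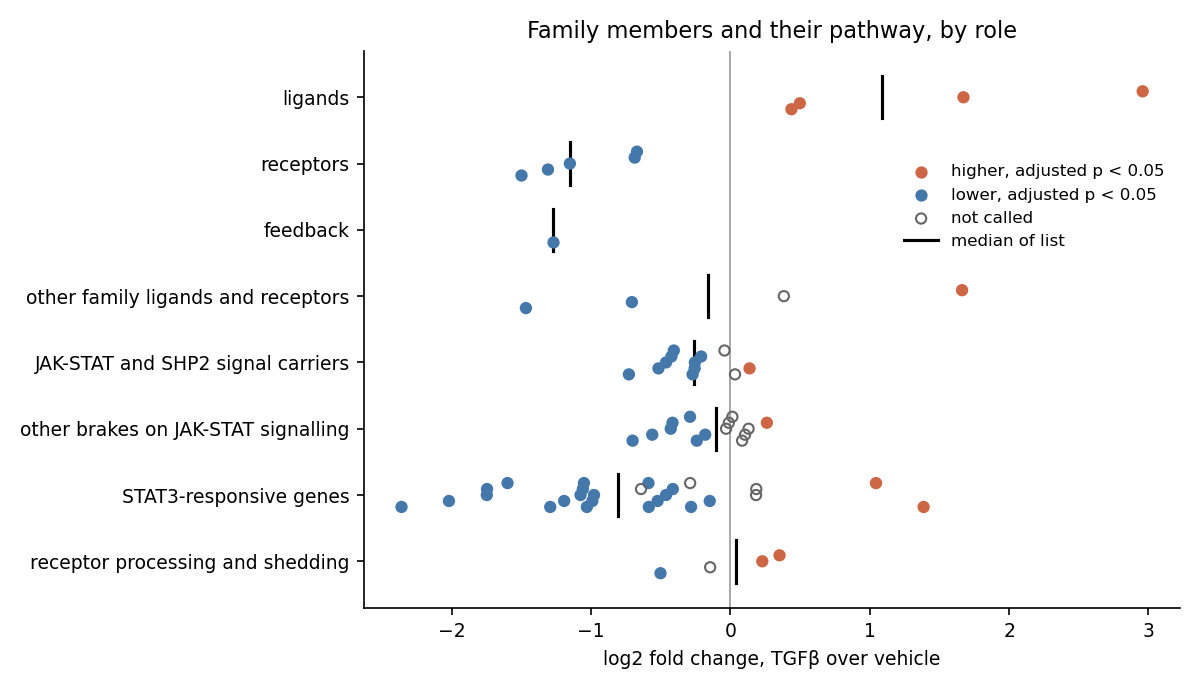
Log2 fold change of TGFβ over veh for each tested gene, by role (filled, adjusted p under 0.05 in edgeR; open, not called; bar, median of the list). The 4 ligands lie right of 0 and the 5 receptor chains and *Socs3* left of it, and 20 of 26 STAT3-responsive genes are called lower.

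Genes most like *Il11* in pattern over the 6 libraries were taken from 10373 tested genes with a mean of 5 CPM or more. The measure was the root mean square difference of log2 CPM centred on each gene's mean. A small count was added before the logarithm, which shrinks differences at low counts. Among the 5 nearest were *Pdgfc* (a platelet-derived growth factor, difference 0.23), *Ptgs2* (cyclooxygenase 2, 0.30), *Serinc2* (0.31) and *Wnt11* (a Wnt ligand, 0.33). These 4 genes rose, with log2 fold changes from 2.32 for *Wnt11* to 2.84 for *Serinc2*. The pattern includes the difference between veh and TGFβ libraries. Rises of similar size thus follow from the choice, here and for *Il6* below, and are no separate result. *Ptgs2* went from 10.0 to 58.6 CPM and *Pdgfc* from 4.65 to 27.8 CPM in the group means. For *Il6*, among 10372 genes, they were *Rbpms2* (0.08), *Fam162a* (0.08), *Ttc9* (0.08), *Cd44* (the hyaluronan receptor, 0.09) and *Tle1* (0.09), with log2 fold changes from 0.31 for *Cd44* to 0.55 for *Ttc9*. Of these 5, *Rbpms2*, *Ttc9* and *Tle1* passed edgeR's test. *Rbpms2* did not pass it without veh library 2 or 3 or TGFβ library 1 or 3 (adjusted p up to 0.108), nor *Ttc9* without veh library 2 (adjusted p = 0.0578).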

How the data were processed

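RNA-seq libraries of 3 veh and 3 TGFβ cultures were analysed. The authors made strand-specific poly(A) libraries with 75-base single reads, mapped these to mm10, tested genes with DESeq2 and deposited raw counts of reads per gene. The aligner, the counting tool and the annotation are not given in the sources used here. The table also holds the authors' mean of normalized counts, log2 fold change with its error and test statistic, p-value and adjusted p, none of which was used. Each count column names its group but no replicate, so libraries are numbered by column order. Replicates differed by more than counting noise (chi-square per gene 7.95 to 27.1) and each was counted on its own. The methods give 3 biological replicates, but the labels name no animals, so p-values measure the spread between these cultures.

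Counts were scaled with TMM factors, filtered with filterByExpr and compared with the quasi-likelihood test of edgeR 4.0.16 (R 4.3.3), with no covariate and Benjamini-Hochberg adjustment over the 14334 genes kept, at a threshold of 0.05. In this fit, 5828 genes were called, with a median absolute log2 fold change of 0.40, and the common biological coefficient of variation was 7.97%. Standard errors follow from the fold change and the F statistic. RPKM divide CPM by the length of all exons in GENCODE M21, in which 25086 of 25140 genes were found. Shared sequence was gauged from 75-base windows of the longest transcript. Motif letters were searched in RefSeq windows, and *Clcf1* had no entry. Intervals on counts cover counting error only.

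On simulated counts (14281 genes tested, 200 of them changed), 5.10% of edgeR's calls were false. It recovered 86.0% of the genes changed by 0.5 and 100% of those changed by 1.5 on the log2 scale. The simulation gave all genes the same biological variation, and only genes above a minimum mean count were changed. In the data, this variation ran from 4.99% (*Il11ra1*) to 24.4% (*Il11*) among the members, with 12.2% for *Il6*. The recovered shares therefore need not hold for each member. The simulation also changed 200 genes, far fewer than the 5828 called in the data. Its shares of false and recovered genes may thus differ from those in the data. The alternatives were DESeq2 size factors or upper quartile scaling in edgeR, DESeq2 1.42.0, limma-voom (limma 3.58.1), no filter on low counts, at least 1 CPM in 3 libraries, each library left out, and the longest transcript as gene length. For the pathway lists and the genes most like *Il11* and *Il6* these alternatives were added after seeing the data. The members, the gene lists and the markers were chosen with earlier results of these data known. Genes named outside the members are *Jak1*, *Jak2*, *Tyk2* and *Stat3*, the 3 called genes with the largest rise and the 3 with the largest fall in each list, genes with too few reads for a test, and the 5 genes most like *Il11* and *Il6*. Some genes that these rules take in are counted but their own results are not reported here. *Ctf1* was named after its values were seen, as the remaining tested gene of its list.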

Additional observations from a re-analysis of the deposited data

How the results depend on the processing

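All members kept their direction under the 12 alternatives, and all except *Il6* kept their call. *Il6* lost its call in 6 of the 12. The log2 fold change of *Il6* was 0.42 with upper quartile scaling (adjusted p = 0.0508, edgeR) and 0.25 to 0.57 with each library left out (adjusted p 0.011 to 0.117), so 9 to 10 members were called there. Leaving out a library lowered the number of genes called from 5828 to between 4489 and 5481, with 5 libraries in the fit. The difference in the log2 ratio of *Il11* to *Il6* was 2.40 to 2.70. With the longest transcript as length, which is shorter than all exons together, levels with veh and TGFβ were 2.58 and 3.64 RPKM for *Clcf1*, 234 (234.1) and 105 (105.3) RPKM for *Il6st*, 24.6 and 15.5 RPKM for *Il11ra1*, 4.77 and 1.69 RPKM for *Lifr*, 61.8 and 38.4 RPKM for *Osmr*, and 44.1 and 18.2 RPKM for *Socs3*. The number of JAK-STAT brakes called lower was 4 to 6 with a library left out, against 7. For the signal carriers it was 7 to 9, against 9, and for the STAT3-responsive genes 15 to 20, against 20. Directions turned only for genes that were not called, namely *Socs4* (-0.0076 with upper quartile scaling, -0.0349 to 0.0457 with a library left out) and *Ptpn2* (-0.0584 to 0.0283). The cause of these shifts was not tested. DESeq2 size factors moved the median of all genes by -0.0053 and upper quartile scaling by -0.021 on the log2 scale. No paired analysis was possible because the count columns carry no replicate number. Reads on *Il11* were few with veh (18 to 32), so counting error adds to the spread of its level there. Changes that edgeR's test can miss at 3 libraries a group include those of about 0.5 on the log2 scale. Of these, 86.0% were recovered in counts simulated with 200 changed genes and the same variation for all genes, which differs from the data.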
